A study of Mus musculus with 70 samples.

Results

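Among 24 groups of mouse brain regions and embryonic stem cells profiled by bulk RNA-Seq, punches of the arcuate hypothalamic nucleus (ARH) contained transcripts of genes usually studied in the pituitary. The 10 genes described here, of 34677 in the gene table, were Cga, Tshb, Lhb, Fshb, Gh, Prl, Pou1f1, Tbx19, Mtnr1a and Bpifa1. They were selected on their TPM in ARH, so their ARH values are a description and carry no test. The question was whether these values looked more like the pars tuberalis, the part of the pituitary that wraps the stalk under the ARH, or like the anterior lobe. All samples were labelled C57BL/6, and the study's methods give C57BL/6NTac for the mice: 57 libraries from 18 regions of adult male mice (P56), 9 from 4 regions of E14.5 embryos, and 4 from the embryonic stem cell (mESC) lines B6-1 and B6-2, each of which is 1 clone. The mice carried no transgene or treatment, and ARH had 3 libraries.

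Brain libraries pooled punches of frozen sections from several mice, except 1 of ACB from a single mouse. There were fewer mice than libraries, and libraries of different regions can therefore share animals. The other adult hypothalamic groups were the paraventricular (PVH, n = 2), dorsomedial (DMH, n = 4) and ventromedial (VMH, n = 2) nuclei and the lateral area (LHA, n = 3). The embryonic groups were the terminal and peduncular hypothalamus (THy-PHy, n = 3), forebrain (F, n = 1), midbrain (M, n = 2) and hindbrain (H, n = 3). Other groups named below are the entorhinal area (ENT), nucleus of the solitary tract (NTS), dorsal-vagal complex (DVC), flocculus (FL), ventral tegmental area (VTA), anterior cingulate area (ACA), nucleus accumbens (ACB), parabrachial nucleus (PB), cerebellar nuclei (CBN), and the cerebellar lobules CENT2, CUL4-5 and UVU. Total estimated counts ranged from 9074581 to 22229582 per library, and from 16937078 to 19689276 in ARH. The ARH label fitted the markers of arcuate neurons: Pomc reached 554, 672 and 427 TPM (a transcript level corrected for length and depth) and Agrp 107, 200 and 87.7 TPM in the 3 ARH libraries, against at most 17.4 and 3.63 TPM in any other adult library. In bulk tissue, fewer cells of a type and less RNA per cell cannot be told apart.

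Thyrotropin, luteinizing hormone and follicle-stimulating hormone are heterodimers that share the alpha subunit encoded by Cga and differ in the beta subunit (Tshb, Lhb or Fshb). Anterior lobe cells also make growth hormone (Gh) and prolactin (Prl) under the factor Pou1f1, while Tbx19 is the factor of Pomc-expressing pituitary cells. Pars tuberalis cells are known for Cga, Tshb and the melatonin receptor Mtnr1a, and their thyrotropin acts on Tshr in the neighbouring tanycytes, the cells that line the ventricle floor at the ARH.

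Promoter sequences were given by RefSeq (GRCm38.p6) for 9 of the 10 genes. Those of Cga and Tshb are shown because their products form thyrotropin and both genes were present in ARH and in THy-PHy. Each runs from 250 bases before to 50 after the start site, 5′ to 3′ on the strand of the gene, with capitals marking TATAAA and AGATAA (the letters of a TATA box and of a GATA factor motif, searched on both strands).
Cga, chr4:34893529-34893828, plus strand: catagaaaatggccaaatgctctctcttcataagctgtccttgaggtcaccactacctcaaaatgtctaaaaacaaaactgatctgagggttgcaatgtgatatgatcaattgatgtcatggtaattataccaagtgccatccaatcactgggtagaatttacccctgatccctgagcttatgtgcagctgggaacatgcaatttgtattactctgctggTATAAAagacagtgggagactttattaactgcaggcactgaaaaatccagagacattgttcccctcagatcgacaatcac
Tshb, chr3:102782665-102782964, minus strand: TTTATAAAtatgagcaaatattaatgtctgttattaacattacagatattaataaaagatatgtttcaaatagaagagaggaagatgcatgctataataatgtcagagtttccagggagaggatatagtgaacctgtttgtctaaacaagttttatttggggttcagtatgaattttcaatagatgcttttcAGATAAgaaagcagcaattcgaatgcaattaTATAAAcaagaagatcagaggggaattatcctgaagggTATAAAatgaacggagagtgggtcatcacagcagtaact
TATAAA occurred once in the Cga window, starting 30 bases before the start site. It occurred 4 times in the Tshb window, 2 of these overlapping each other at the far end and 1 starting 27 bases before the start site. These letters were in 13.6% of 32851 promoter windows of the same length. AGATAA, held by 11.2% of windows, was in the Tshb window once and not in that of Cga. The letters TTATGTAA (D-box, 0.938% of windows), CACGTG (E-box, 7.15%), TGACGTCA (cyclic AMP response element, 1.79%) and TAATCC (bicoid-type, 7.06%) were in neither window.

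Cga (chr4:34893779-34907370, GRCm38, plus strand) had the highest mean level of the 10 genes in ARH. Its level was 67.3, 93.7 and 75.8 TPM in the 3 ARH libraries, from 314, 511 and 370 estimated counts. The highest other adult library was the first of ENT, at 4.33 TPM from 17 counts, and the lowest ARH library was 15.5 times that. Of the 54 other adult libraries, 44 had no Cga count, and only 2, both of ENT, had 3 or more, which was the least taken here as detection. In order of mean level, ARH (78.9 ± 13.4 TPM, SD, n = 3) was followed by THy-PHy (10.4 ± 7.84, n = 3) and ENT (1.62 ± 2.37, n = 3), whose ranges overlapped each other but not that of ARH. ARH held 85.2% of the Cga TPM, computed as its group mean in the sum of the 24 group means, where an equal split would give 4.17%. Leaving out any 1 ARH library gave 83.9 to 86.1%. The end of Cga overlaps the antisense gene Platr9, and reads of the pair are uncertain there.

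**Figure D1:**
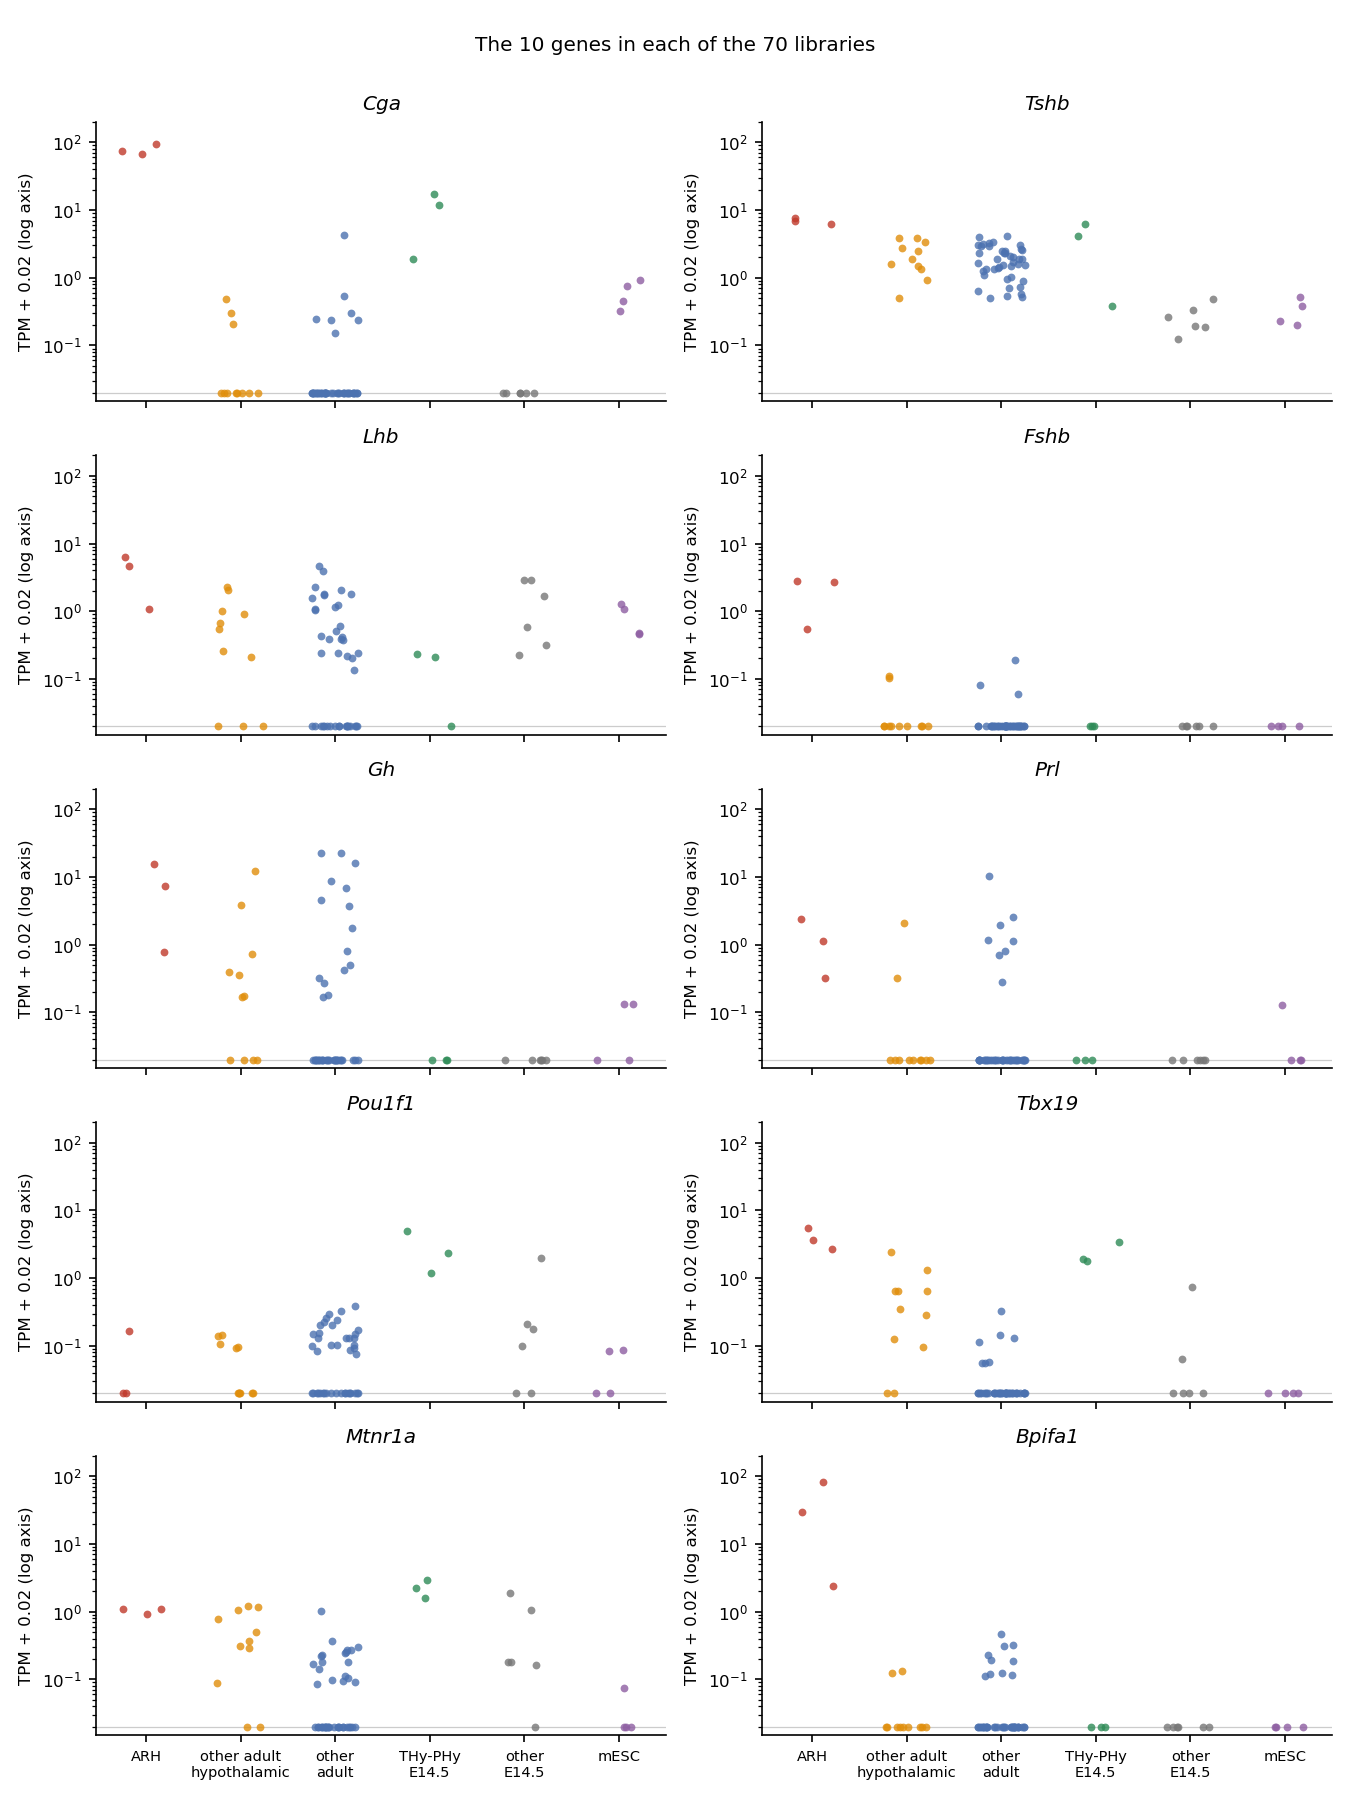
Level of each of the 10 genes in each of the 70 libraries, as TPM + 0.02 on a log axis so that 0 can be drawn (grey line); each point is a library, grouped as ARH, other adult hypothalamic regions, other adult regions, THy-PHy, other E14.5 regions and mESC. The 3 ARH points of Cga sit between 67.3 and 93.7 TPM above all others, whereas those of Gh and Prl lie within the range of the other adult libraries.

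Tshb (chr3:102775465-102782718, minus strand), the thyrotropin beta subunit, was also highest in ARH, but its gene-level value mixed unlike transcripts. The gene-level values were 6.1, 7.62 and 6.77 TPM in ARH, and every other adult library was lower, at 4.11 TPM or less. All 70 libraries had at least 3 counts of the gene. Outside ARH nearly all of these counts fell on 1 transcript annotated as a retained intron, which took 3081 counts in the 67 other libraries. That transcript is a single exon of 4396 bases at chr3:102775465-102779860. Its last 1933 bases lie beyond the 3′ end of the coding transcripts, and the whole Tshb gene lies within Tspan2 (chr3:102734529-102801513), which is on the opposite strand. The libraries were strand-specific, but whether the quantification used strand is not given in the sources used here, so reads of Tspan2 and of this Tshb transcript cannot be told apart.

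Restricted to protein-coding transcripts, Tshb was 5.56, 6.71 and 6.27 TPM in the ARH libraries, from 17.4 to 26.9 counts. Outside ARH, adult libraries reached at most 2.61 TPM, in LHA, and 20 of the 54 had none. THy-PHy held 0.226, 3.65 and 6.02 TPM, so that its highest library overlapped ARH and its lowest did not. Against Cga, coding Tshb stood at 0.0825, 0.0716 and 0.0827 in the ARH libraries, a ratio that was nearly the same in all 3. The retained-intron transcript showed another order: 0.647 ± 0.225 TPM (SD, n = 3) in ARH, against 2.37 ± 0.491 (n = 4) in CUL4-5 and 2.19 ± 0.278 (n = 3) in UVU. The ARH share of Tshb was 15.6% ± 1.73 (SD, n = 3) by gene-level TPM, 4.42% by estimated counts, to which the long retained-intron transcript adds most, and 32% over the coding transcripts, a restriction chosen after the data were seen.

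**Figure D2:**
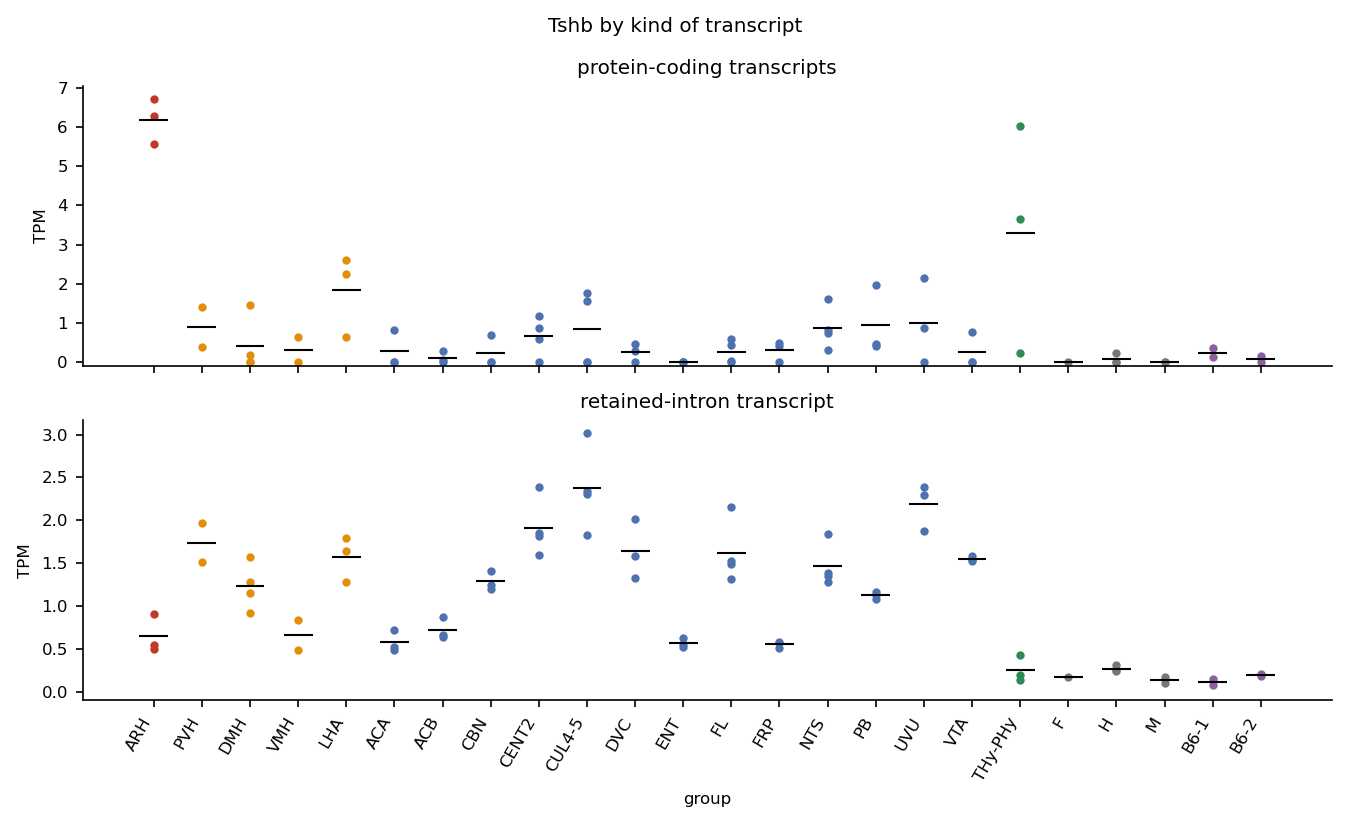
TPM of the protein-coding transcripts (top) and of the retained-intron transcript (bottom) of Tshb in the 24 groups; points are libraries and bars are group means. The coding transcripts are highest in ARH, at 5.56 to 6.71 TPM, and the retained-intron transcript is highest in the cerebellar lobules CUL4-5 and UVU.

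The gonadotropin beta subunits were lower and less even. Fshb (chr2:107056140-107059656, minus strand) had 0.519, 2.68 and 2.81 TPM in ARH, from 7, 43 and 40 counts. The 67 other libraries held 6 counts together and none held more than 2, so every ARH library lay above every other one. Its ARH share was 93.7% ± 60.2 (SD, n = 3), and the first library was the low one. Lhb (chr7:45420820-45421897, plus strand) had 1.06, 4.61 and 6.39 TPM in ARH, from 5, 26 and 32 counts. It was not limited to ARH: 26 libraries of 14 groups had at least 3 counts, with up to 4.56 TPM in CENT2 and 3.89 TPM in CBN. The values behind the means of ARH (4.02 ± 2.72 TPM, n = 3), CENT2 (2.52 ± 1.39, n = 4) and CBN (2.34 ± 1.41, n = 3) overlapped within their spread. The last 138 bases of Lhb overlap Ruvbl2 on the other strand, a gene at 22.6 to 361 TPM in these libraries, so its low values are uncertain.

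Gh and Prl, the leading hormones of the anterior lobe, were scattered over adult libraries of many regions. Gh (chr11:106300271-106301865, minus strand) was 0.771, 7.39 and 15.6 TPM in ARH, a range of 20.2-fold among replicates. At least 3 counts of Gh were present in 17 libraries, 14 of them adult libraries of 9 groups other than ARH. The first ENT library had 22.9 TPM, the fourth of NTS 22.3, the first of DVC 15.8 and the first of LHA 12.4. ARH was the only adult group with all of its libraries at 3 counts or more, and its range lay inside that of the other adult libraries. Prl (chr13:27057570-27065205, plus strand) was 0.298, 1.13 and 2.4 TPM in ARH, from 2, 9 and 17 counts, and 10.3 TPM in the first ENT library.

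All 10 libraries with at least 3 counts of Prl also had at least 3 of Gh, and across the 70 libraries Prl was the gene most like Gh, with Pearson's r = 0.903 on log2(TPM + 1), a description of libraries that share animals. In ARH, Gh exceeded Prl 6.56-fold and 6.52-fold in the 2 libraries with the most Gh. In the 8 other libraries with 3 or more counts of Prl, that ratio ran from 1.94 in the first VTA library to 20.1 in the first DVC library, with 2.23 in the first ENT library, 6.07 in the first LHA library and 8.86 in the fourth NTS library. Gh stood to Cga as 0.0115, 0.0789 and 0.206 in the 3 ARH libraries, and as 5.28 and 13.1 in the 2 ENT libraries with 3 or more counts of both. Cga thus exceeded Gh in each ARH library, and Gh exceeded Cga in both ENT libraries. The 14 libraries outside ARH with Gh had at most 0.19 TPM of Pitx1, a factor of the pituitary primordium, against 4.54 to 10.8 TPM in ARH. The ARH shares were 19.2% ± 18 for Gh and 15.9% ± 13.2 for Prl (SD, n = 3), below those of ENT, 24% and 47.3%. This order came from the first ENT library: the medians over libraries were 7.39 TPM of Gh in ARH and 6.82 in ENT, and 1.13 TPM of Prl in ARH and 1.12 in ENT. With medians the ARH shares were 34.9% for Gh and 38.6% for Prl. Without the third ARH library, the Gh share was 10.9% and that of Prl was 9.55%.

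**Figure D3:**
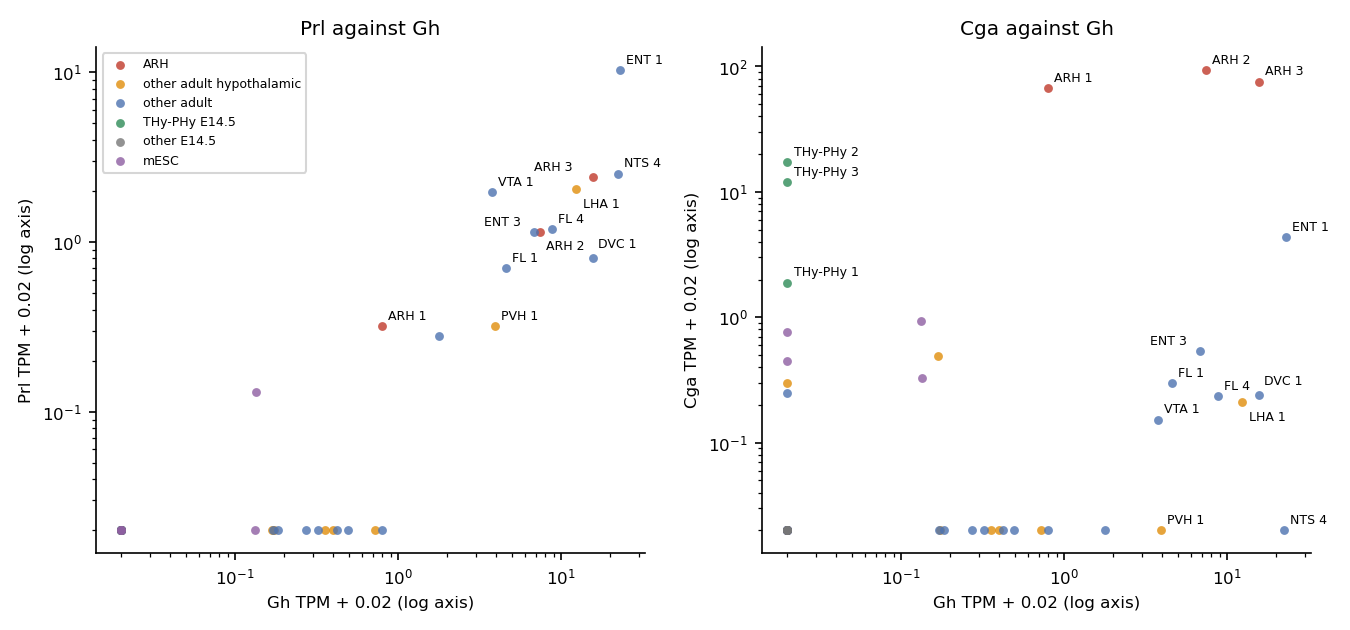
Prl (left) and Cga (right) against Gh in the 70 libraries, each as TPM + 0.02 on log axes, coloured by kind of sample and labelled by group and replicate where Gh exceeds 3 TPM or Cga 1.5 TPM. Gh and Prl lie along 1 band that holds ARH, ENT, NTS, LHA, FL, VTA and DVC libraries, while Cga separates the 3 ARH libraries and, with no Gh, the 3 THy-PHy libraries.

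Pou1f1 and Tbx19, the factors of different pituitary lineages, differed in ARH. Pou1f1 (chr16:65520511-65535005, plus strand) was 0.146, 0 and 0 TPM in ARH, from 2.21 counts in all, and 3 counts would have been 0.167 to 0.198 TPM there. It was not detectable in ARH at this depth. In THy-PHy it was 2.3, 4.95 and 1.18 TPM, and 1 hindbrain library had 1.96 TPM. Tbx19 (chr1:165137855-165160773, minus strand) was 3.69, 2.68 and 5.49 TPM in ARH, from 69 to 128 counts, above every other adult library. The next groups were THy-PHy (2.35 ± 0.876 TPM, n = 3), VMH (0.618 and 2.4 TPM) and DMH (0.335 to 1.28 TPM, n = 4), and the ranges of ARH and THy-PHy overlapped. ARH held 43.1% ± 15.5 (SD, n = 3) of its TPM.

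The other factors of the pituitary lineage that were listed, numbered 15 beside the 2 members. By edgeR's quasi-likelihood test with Benjamini-Hochberg adjustment over 19980 genes, a gene was called at adjusted p under 0.05 and a log2 fold change above 1 in size. Of the 15, 8 were higher and 1 was lower in ARH than in the mean of the 21 other brain groups, where 9.63% and 2.84% of all genes were called higher and lower. The same 8 higher genes and the same lower gene were called against PVH, DMH, VMH and LHA, where 4.71% and 2.19% of all genes were. The median log2 fold change of the 15 was 2.57 and 1.46 in these comparisons, beside 0.02 over all genes tested in both.

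Pitx1 was 4.54, 10.8 and 7.33 TPM in ARH and at most 0.506 TPM in any other adult library, a log2 fold change of 6.87 (SE 0.34, adjusted p = 5.57e-21) against the other brain groups. Lhx3, a LIM factor needed for the pituitary gland, was 2.49, 2.56 and 3.96 TPM (log2 fold change 2.57, SE 0.32, adjusted p = 2.54e-09). The second NTS library, at 2.75 TPM of Lhx3, lay inside that range. Six6, Isl1 and Nr5a1 were also called higher. These 3 are hypothalamic factors too, and Nr5a1 was highest in VMH, at 45.8 TPM. Hesx1 was called higher at only 0.124 to 0.661 TPM in ARH. Of 3 other intermediate lobe genes, Pomc alone was called. Pax7, a factor of that lobe, reached at most 0.0573 TPM in ARH, and Neurod4 was the gene called lower, at 0.028 to 0.0945 TPM.

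Receptors by which anterior lobe cells read hypothalamic hormones gave 2 calls higher and 1 lower among the 4 of 7 that could be tested, against the other brain groups, and 1 higher against the other adult hypothalamic regions. Ghrhr, the growth hormone-releasing hormone receptor, was 0.231, 0.154 and 0 TPM in ARH. Gnrhr, the gonadotropin-releasing hormone receptor, was 0, 0.171 and 0.0966 TPM, and Avpr1b, which passed the filter on low counts but had groups at 0 on both sides and so no test, was at 0 in all 3. These values sit beside 129, 129 and 107 TPM of Ghrh in the same libraries. Ghsr, the ghrelin receptor, also of arcuate neurons, was called higher in both comparisons, at 6.59 to 7.62 TPM. Trhr was higher (log2 fold change 1.67, SE 0.25, adjusted p = 2.02e-07) and Crhr1 lower (-1.07, SE 0.18, adjusted p = 2.79e-06) in the wider comparison, and neither passed in the narrower one.  The 7 receptors summed to 26.1 to 28.4 TPM in ARH, within the 17.3 to 38.2 TPM of the other adult hypothalamic libraries.

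**Figure D4:**
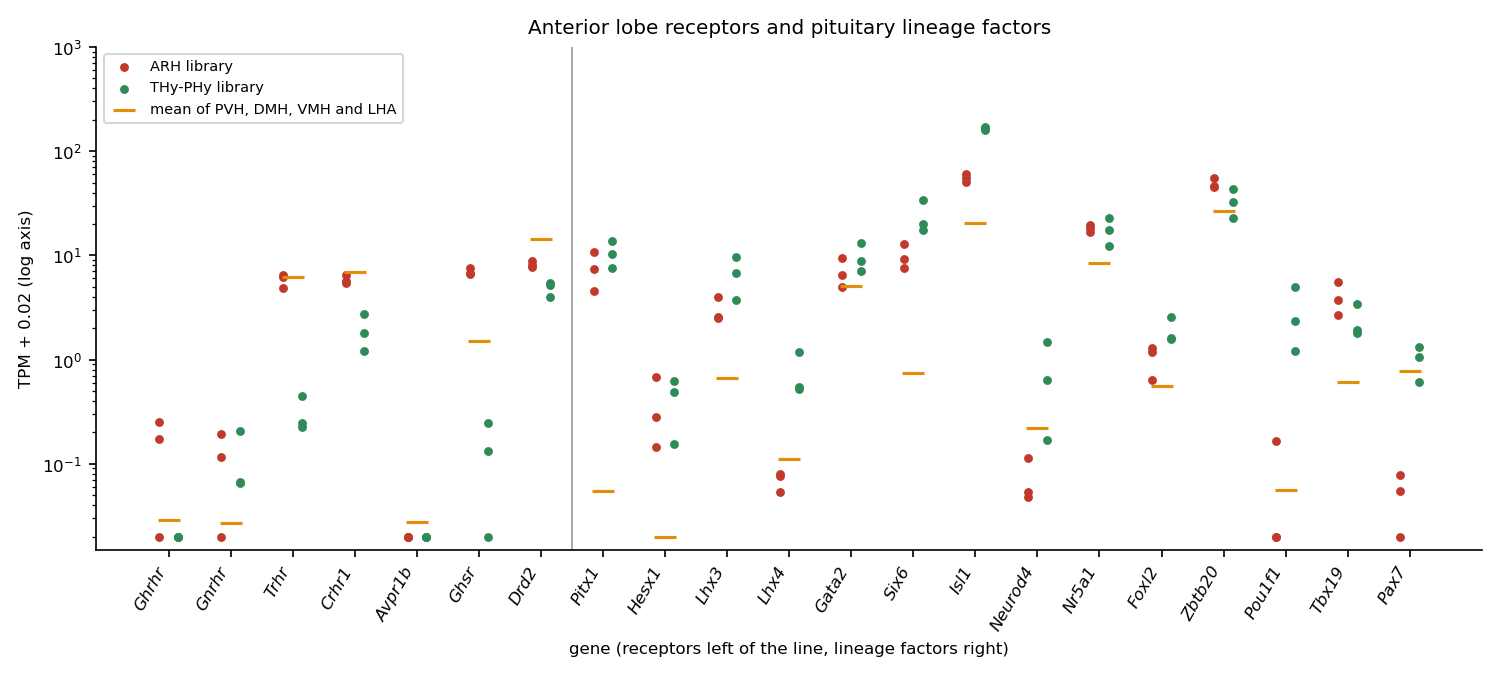
Anterior lobe receptors (left of the line) and pituitary lineage factors (right) as TPM + 0.02 on a log axis, with a point for each ARH and THy-PHy library and a bar for the mean of PVH, DMH, VMH and LHA. Pitx1 is 4.54 to 10.8 TPM in ARH and 7.61 to 13.8 TPM in THy-PHy, and Ghrhr, Gnrhr, Avpr1b and Pou1f1 are at or near 0 in ARH.

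Mtnr1a (chr8:45069137-45088506, plus strand), the melatonin receptor, was low in ARH, at 1.08, 0.904 and 1.07 TPM from 10, 7 and 15 counts. The transcripts behind these values were less even. The main transcript was 0.508, 0.409 and 1.07 TPM. Another coding transcript added 0.36 and 0.495 TPM in the first and second libraries, from only 0.335 and 0.547 counts. Mtnr1a was not highest in ARH: THy-PHy had 2.24 ± 0.699 TPM (SD, n = 3). Single libraries of VMH (1.17), PVH (1.15), DMH (1.03) and NTS (0.999, from 2 counts) lay inside or above the ARH range. So did hindbrain libraries at 1.89 and 1.03 TPM, from 5 and 7 counts. ARH held 12.9% ± 1.24 (SD, n = 3) of its TPM and THy-PHy 28.3%.

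Of 5 other genes listed for the pars tuberalis, 2 were higher (Pitx1 among them) in ARH in both comparisons and none was lower, with a median log2 fold change of 0.52 against the other brain groups and -0.01 against the other adult hypothalamic regions. Of the other 9 genes listed for the melatonin and thyrotropin pathway, 8 were tested. Of these, 4 were higher in ARH than in the other brain groups and 5 than in the other adult hypothalamic regions, and none was lower. Tshr, the thyrotropin receptor, was 4.43, 7.18 and 5.45 TPM in ARH and at most 1.8 TPM in any other adult library (log2 fold change 4.27, SE 0.25, adjusted p = 4.70e-20). Gpr50, a relative of the melatonin receptors, was 53.8, 69.5 and 63 TPM. Dio2, the deiodinase that makes active thyroid hormone, was 7.01, 11.7 and 7.71 TPM. It was called higher than in the other adult hypothalamic regions (log2 fold change 1.49, SE 0.20, adjusted p = 3.80e-08). Against the other brain groups it was not called (log2 fold change 0.96, below 1 in size). Its mean was 8.8 TPM in ARH and 13.5 TPM over the adult regions outside the hypothalamus. Dio3, which inactivates thyroid hormone, was called higher in both comparisons. The Dio3 call against all other brain groups rests on the mean of log levels: its mean TPM was 1.4 in ARH, 1.44 over the adult regions outside the hypothalamus and 7.15 in THy-PHy. Eya3, the long-day gene of the pars tuberalis, was 18.1 to 19.4 TPM and did not pass (log2 fold change -0.24, adjusted p = 0.00159, below 1 in size). Mtnr1b was listed at 0 in all 70 libraries. Cck, listed for the pars tuberalis and abundant in cortical neurons, was 48.4, 72.6 and 70 TPM in ARH against up to 1844 TPM in ACA, and did not pass. Among 5 relatives of the glycoprotein hormones and their receptors, 2 were tested and Tshr was the 1 called.

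Bpifa1 (chr2:154142880-154149219, plus strand), a secreted protein known from airway epithelium, was also highest in ARH and far less even than Cga. It was 29.6, 82.6 and 2.37 TPM in ARH, from 260, 864 and 22 counts, a range of 34.9-fold. The 67 other libraries held 13 counts together and no more than 2 each. Its order among the ARH libraries was not that of Gh, Prl, Lhb or Fshb, for all of which the first library was lowest. The ARH share was 98.2% ± 105 (SD, n = 3).

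Of the 8 other genes listed for airway epithelium, 4 passed the filter and 2 were called higher in ARH in both comparisons. Bpifb1, of the same family as Bpifa1, was 2.32, 7.35 and 1.78 TPM (log2 fold change 4.47, SE 0.38, adjusted p = 2.32e-14 against the other brain groups), highest in the ARH library with the most Bpifa1. Scgb3a1 was 0, 3.67 and 0 TPM, in that same library alone. Scgb1a1 was at most 0.355 TPM, Scgb3a2, Muc5ac and Reg3g were at 0, and the 8 genes summed to 1.79 to 11.4 TPM in ARH against at most 2.47 TPM in any other adult library. Their part in the level of Bpifa1 was not tested.

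**Figure D5:**
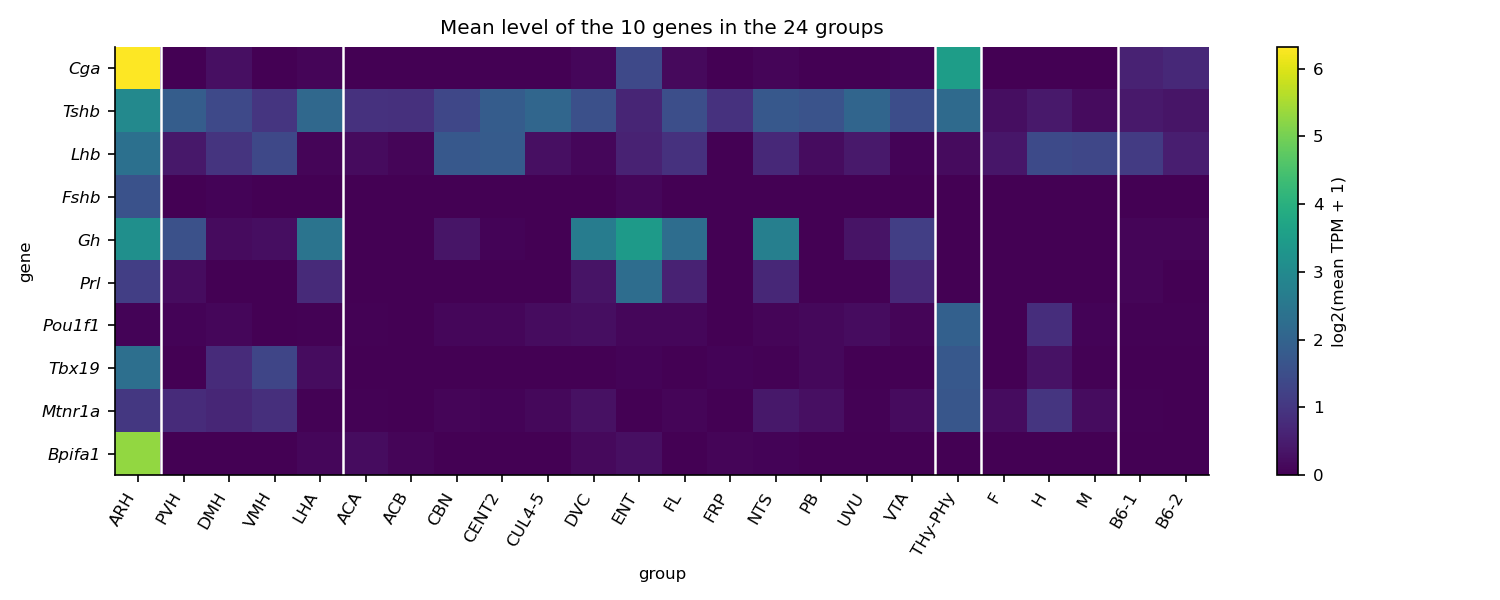
Mean level of the 10 genes in the 24 groups as log2(mean TPM + 1), with white lines between ARH, the other adult hypothalamic groups, other adult groups, THy-PHy, other embryonic groups and mESC. Cga and Bpifa1 are brightest in ARH, Pou1f1 in THy-PHy, and Gh and Prl in ENT.

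Markers of other cells stood beside these values. Of 9 tanycyte genes, 7 were higher in ARH than in the other brain groups and 8 than in the other adult hypothalamic regions. For 2 of the 7, Crym and Lhx2, the mean TPM was higher outside the hypothalamus than in ARH (72.4 against 27.7 TPM and 16.1 against 16 TPM), so the direction depends on averaging logs. The same held for Kl and Th among the genes called below. Rax, a factor that marks tanycytes, was 11.1, 22.6 and 16.5 TPM (log2 fold change 7.58, SE 0.28, adjusted p = 4.78e-27 against the other brain groups). Of 8 leptomeningeal genes, 5 and 8 were higher in the same comparisons, with Dcn at 75.5, 69.5 and 56.2 TPM and a summed level of 213 to 367 TPM in ARH against 37.1 to 115 TPM in the other adult hypothalamic libraries and 22.7 to 326 TPM in adult libraries outside the hypothalamus, which overlapped ARH. None of 5 genes of fenestrated vessels and vessel walls was called, and Plvap was 10.5, 12.9 and 13.5 TPM. Of 5 choroid plexus genes, 2 and 3 were higher, but Ttr, its leading transcript, was only 1.82 to 1.96 TPM in ARH. None of 4 red cell genes was called in either comparison. Of 6 arcuate neuron genes, 5 were tested, and 5 and 4 were higher. The part of these tissues in the levels of the 10 genes was not tested.

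Members were tested in comparisons without ARH libraries. The members were chosen with earlier results of these data known, so calls in the embryonic and adult comparisons are not independent of that choice. In E14.5 embryos, 5 of the 10 members were higher in THy-PHy than in the mean of F, M and H, where 2.28% of all genes were called higher and 0.976% lower. All 10 had passed the filter on low counts, which any single group could meet. Cga was 1.87, 17.3 and 12 TPM in THy-PHy, and none of the 6 other embryonic libraries had a count. Against 3 counts in those 6 libraries together, it was at least 105-fold higher in THy-PHy (adjusted p = 4.51e-06). Pou1f1 (log2 fold change 5.26, SE 1.07, adjusted p = 0.000465), Tbx19 (6.69, SE 0.94, adjusted p = 8.21e-06), Mtnr1a (2.87, SE 0.75, adjusted p = 0.00753) and Tshb (1.69, SE 0.32, adjusted p = 0.000146) were the others. For Tshb, Pou1f1 and Mtnr1a, 2 of the 3 THy-PHy libraries lay above every other embryonic library, and for Cga and Tbx19 all 3 did. Lhb had a log2 fold change of -2.56 (SE 1.22) and did not pass (adjusted p = 0.196). Fshb, Gh, Prl and Bpifa1 had no count in any of the 9 embryonic libraries and so could not be called.

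Lineage factors were also called in the embryo. Of the 15 listed beside the members, 9 were higher in THy-PHy and none was lower, with a median log2 fold change of 3.35 beside 0.01 over all genes. Pitx1 was 10.3, 13.8 and 7.61 TPM and Lhx3 6.69, 9.65 and 3.68 TPM. Side by side, ARH had Cga at 67.3 to 93.7 TPM with Pou1f1 at 0 to 0.146 TPM, and THy-PHy had Cga at 1.87 to 17.3 TPM with Pou1f1 at 1.18 to 4.95 TPM. The stages differ, and no test was made between them.

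Among adult regions, PVH, DMH, VMH and LHA were compared with the 13 regions outside the hypothalamus, where 5.68% of all genes were called higher and 2.68% lower. Mtnr1a was the 1 member called by edgeR's test. It was 0.54 TPM over the hypothalamic groups and 0.0902 TPM over the others (log2 fold change 2.24, SE 0.67, adjusted p = 0.00524), with 3 of the 11 hypothalamic libraries above every one of the 43 others. In LHA it rested on 1 count in 1 library. Tshb (log2 fold change -0.05, adjusted p = 0.862), Lhb (0.68, adjusted p = 0.363) and Gh (1.33, adjusted p = 0.382) did not pass. The mean TPM of Gh, 1.67 in the hypothalamic groups and 2.04 in the others, differed in the other direction from this log2 value, which was 0.50 without the first LHA library. The counts of Tshb in these regions were mostly of the retained-intron transcript, so its test does not measure the coding transcripts. For Cga, Fshb, Prl, Pou1f1, Tbx19 and Bpifa1, as for 8.2% of the genes, a group on each side had no count in any library, and the difference of mean log levels then gives no test. Tbx19 had none in PVH. It was above every library outside the hypothalamus in 6 of the 11 hypothalamic libraries, those of DMH and VMH. By DESeq2 its log2 fold change was 3.69 (adjusted p = 0.000316), past both limits. It had a difference of 1.81 on the log2(TPM + 0.1) scale (limma, adjusted p = 1.98e-10) and 0.81 on the log2(TPM + 0.5) scale (adjusted p = 3.33e-09), the latter below the size limit of 1.

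The genes most like Cga over the 70 libraries, by Pearson's r on log2(TPM + 1) among 21681 genes that reached 1 TPM, were Apoa4 (0.892), Htr3b (0.88), Pomc (0.879), Rax (0.861), Apoa5 (0.82), Tbx19 (0.819), Six6 (0.806), Fshb (0.806), Higd1c (0.805) and Sprr2a2 (0.805). These coefficients describe libraries that share regions and animals. Apoa4 was 1.8, 2.98 and 1.89 TPM in ARH and Htr3b 1.59, 1.64 and 1.39 TPM. Among members, Bpifa1 followed at 0.78, Mtnr1a at 0.531 and Tshb at 0.461, with Prl (0.378), Gh (0.354), Lhb (0.342) and Pou1f1 (0.298) below.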

How the data were processed

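RNA-Seq libraries were strand-specific mRNA libraries sequenced as short single reads. The authors quantified reads against the Ensembl GRCm38 cDNA with Kallisto, and the submitters' processing notes also name CASAVA 1.8.2. The deposited files hold estimated counts and TPM per transcript and TPM summed per gene by the authors. Here, transcripts were matched to GENCODE vM21 (GRCm38) by identifier without version (107987 of 109282, 98.8%), leaving 0.42 to 0.77% of counts out. Estimated counts were summed per gene symbol and rounded.

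Counts of all 70 libraries were fitted in 1 model with a term per group (edgeR 4.0.16, R 4.3.3, TMM, filterByExpr, quasi-likelihood). The study used DESeq2 for its regional comparisons. Groups were averaged on the log scale. Of 200 genes changed in counts simulated for ARH against the other brain regions, 187 were tested and 152 called, with 1 unchanged gene called among 17881. For the embryonic comparison, 140 of 183 were called, with 2 unchanged. Apart from the changes made, each simulated gene had 1 mean for all groups, and all genes had the same spread. The simulation thus lacked the regional differences and uneven spread of the real libraries, and it does not measure the rate of false calls in them. Alternatives were DESeq2 1.42.0, limma 3.58.1 on log2(TPM + 0.5) or log2(TPM + 0.1), no filter, a replicate block, and libraries left out.

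The members and lists were chosen with earlier results of these data known. Named genes were the 10 members, fixed markers of each list, called list genes up to the 6 largest, list genes at 0, and the 10 genes most like Cga. Replicates were separate libraries, and p-values measure the spread between them. PCR reads without molecular identifiers are not independent, so count limits cover counting error only. Values of some list genes are not reported here.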

Additional observations from a re-analysis of the deposited data

Results flagged for a closer look

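In groups of 4 libraries, 18 combinations of gene and group had at least 3 counts in a library. They were examined for a value far from the others, and 2 stood out. A chance rate of 1 in 20 does not apply here, because a gene with counts in only 1 library of 4 is always flagged. Both flags also fell on 1 library, for genes that went together across the 70 libraries (r = 0.903). Gh was 22.3 TPM in the fourth NTS library, from 154 counts, and 0 to 0.301 TPM in the other 3, a gap of 0.986 of the whole range. Prl was 2.51 TPM in the same library, from 18 counts, and 0 in the other 3. Cga had no count in that library and Pitx1 was at 0 TPM. The serial number in the label of this library lies close to those of ARH replicate 3, DVC replicate 1 and ENT replicate 1. Each of these libraries is the highest of its group in Gh. Serial numbers in the same run also belong to LHA replicate 3 and PB replicate 3, at only 0.703 and 0 TPM of Gh. FL replicate 4 (8.74 TPM), the highest of FL, is numbered soon after this run, with CUL4-5 replicate 3 (0 TPM) between. LHA replicate 1 (12.4 TPM), PVH replicate 1 (3.89 TPM) and VTA replicate 1 (3.76 TPM) are also the highest of their groups. Their numbers lie apart from this run but close to each other. DMH replicate 1 and PB replicate 1, numbered among them, were at 0 TPM. What the numbers mark is not stated, and their part in the levels of Gh was not tested.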

How the results depend on the processing

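The ARH share of Tshb moved from 15.6% to 4.42% by estimated counts and to 32% over coding transcripts, and that of Prl from 15.9% to 38.6% with medians over libraries in place of means. The other shares stayed within 1 SD under all alternatives run. This limit was loose where the ARH libraries differed widely, with an SD of 105 for Bpifa1, 60.2 for Fshb and 18 for Gh. The Gh share, 19.2%, ran from 10.9% without the third ARH library to 34.9% with medians. With limma on log2(TPM + 0.5), genes lower in ARH than in the other brain regions fell from 568 to 369, genes higher and lower in the other hypothalamic regions from 1135 to 669 and from 536 to 293, and genes higher in the embryonic hypothalamus from 456 to 279. The cause was not tested. Of 137 values of the member tests under alternatives, 136 kept their call. The exception was Mtnr1a in the adult hypothalamic comparison, at 0.72 on the log2(TPM + 0.5) scale (limma, adjusted p = 1.98e-05), and leaving out the third LHA library left LHA without a count and gave no test for it. The first ENT library, highest in Prl, was left out after the data were seen, and 1918 genes were then higher in ARH than in the other brain regions, against 1925. With the replicate block this count was 1929, and the block changed no call of a member. Same-numbered libraries of different adult regions deviated with a median r of 0.0243 (-0.363 to 0.527), so the numbers were not taken as pairs. The study collected samples in several batches, the batch of each library was not used here, and the block on replicate numbers does not stand for it. Depth limits the low members: in ARH, 3 counts of Pou1f1 were 0.167 to 0.198 TPM.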
